A study of Homo sapiens with 8 samples.

Results

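The expression of a gene in cells given both dexamethasone and 17β-estradiol was compared with the level that the effects of each hormone alone would add up to. The departure from additivity, called the interaction, was the log2 effect of dexamethasone in the presence of estradiol minus its log2 effect in vehicle. A value of 0 means that both effects add on the log scale, so that the fold changes multiply. All 8 libraries of the series entered the comparison, and 14201 of 26364 genes had enough counts to be tested. The cells were Ishikawa, an established line from a human endometrial adenocarcinoma, grown before treatment without phenol red and in serum stripped with charcoal, so that little steroid hormone was present. The 4 groups were vehicle (DMSO), 100 nM dexamethasone, 10 nM estradiol, and both hormones at these doses, with 2 libraries each. The sample labels give 8 hr of treatment and the shared protocol gives 1 hr, and the sources used here do not settle which applies. The labels do not state whether replicate libraries derive from different cultures. P-values therefore measure the spread between libraries, which may be technical, and all groups share a single cell line.

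Dexamethasone is a synthetic ligand of the glucocorticoid receptor (NR3C1), and estradiol is the natural ligand of estrogen receptor α (ESR1). Both receptors are ligand-activated transcription factors that bind DNA as dimers at palindromic elements or act through other factors on chromatin, and they draw on shared coregulators. In the uterus, estrogen drives growth of the epithelium, and glucocorticoids are known to oppose several of its effects.

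Total counts ranged from 17846211 to 22487333 per library, with 16969 to 17507 genes detected. The epithelial markers of the line were abundant, with summed levels of 3247 to 4657 library-scaled counts (CPM) and 6 of 6 tested. Summed leukocyte markers reached 1.21 to 3.12 CPM with CD3E at 0, endothelial markers 7.79 to 11.3 CPM, and fibroblast markers 137 to 196 CPM with FAP at 0 and COL1A1 as the most abundant. Dexamethasone replicate 2 had 1.42% of its counts in the ribosomal precursor RNA45S5, against 2.79% to 4.03% in the other libraries, and the part of this difference in the results was not tested. The chi-square over genes between replicate libraries was largest with dexamethasone, at 24.8 for each degree of freedom, against 9.61 to 17.2 in the other groups. It was taken over raw counts, in which abundant genes weigh most, and it includes RNA45S5. It is therefore not separate from the RNA45S5 difference, and the part of that gene in it was not computed. For the interaction of a single gene, the median standard error (SE) was 0.19 on the log2 scale.

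Of 14201 genes, 3 departed from additivity at an adjusted p under 0.05 (0.0211%, edgeR quasi-likelihood test with Benjamini-Hochberg adjustment). PPP1R1B and EHF departed downward and POTEF upward, and in each the response to both hormones together was smaller than the larger of the single responses. By the classes set for this comparison all 3 were therefore antagonised, and 0 genes were called as more than additive, as less than additive beyond the larger single response, or as specific to the combination. For POTEF this class rests on low levels in all hormone-treated libraries, and it does not show that either hormone opposed the other. At an unadjusted p under 0.05, 733 genes departed, 487 downward (3.43% of those tested) and 246 upward (1.73%). By DESeq2 and limma-voom the totals at this unadjusted threshold were 411 and 729, and at the adjusted threshold 14 and 3.

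PPP1R1B encodes DARPP-32, a phosphatase inhibitor that is regulated by cyclic AMP signalling. Its level was 8.13 and 6.81 CPM in the vehicle libraries, 68.1 and 63.5 CPM with dexamethasone, 9.01 and 10.3 CPM with estradiol, and 29.4 and 25.3 CPM with both. The combination libraries lay between those of the single hormones and overlapped neither. Dexamethasone raised PPP1R1B by 3.14 ± 0.14 (log2, SE) in vehicle (adjusted p = 7.2e-07, edgeR) and by 1.5 ± 0.13 in estradiol (adjusted p = 0.00042), an interaction of -1.64 ± 0.19 (adjusted p = 0.0231). Multiplying the single effects would have given 85 CPM and summing them 68.0 CPM. The interaction stayed between -1.77 and -1.52 with any library left out, but the call was lost without dexamethasone 1, estradiol 1, estradiol 2 or the unnumbered combination library, with adjusted p up to 0.331.

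EHF is an ETS-family transcription factor of epithelial cells. Its level was 9.50 and 7.20 CPM in vehicle, 33.0 and 31.7 CPM with dexamethasone, 13.9 and 13.6 CPM with estradiol, and 16.7 and 19.1 CPM with both. Each hormone alone raised EHF, by 1.96 ± 0.15 for dexamethasone (adjusted p = 6.45e-05, edgeR) and by 0.72 ± 0.15 for estradiol (adjusted p = 0.039). Added to estradiol, dexamethasone gave 0.39 ± 0.14 (adjusted p = 0.649), so the interaction was -1.57 ± 0.20 (adjusted p = 0.0462). Estradiol thus raised EHF in vehicle and lowered it in dexamethasone, by 0.85 ± 0.14 (adjusted p = 0.00921). Without dexamethasone 1, either estradiol library or either combination library the call was lost, with adjusted p up to 0.366, while the value stayed between -1.78 and -1.38.

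POTEF belongs to a primate-specific family whose proteins carry an actin-like domain. It stood at 75.9 and 99.8 CPM in vehicle, 1.4 and 0.786 CPM with dexamethasone, 1.75 and 1.94 CPM with estradiol, and 1.95 and 2.11 CPM with both. The vehicle libraries were high and the 6 hormone-treated libraries low. Against vehicle all treatments lowered it, with log2 changes of -6.30 ± 0.22 for dexamethasone, -5.56 ± 0.21 for estradiol and -5.43 ± 0.20 for both, so the interaction was 6.43 ± 0.37 (adjusted p = 4.08e-05, edgeR). The multiplied effects would have given 0.0229 CPM, which is too low to be measured at this depth, and the summed effects a level below 0. The call was kept without each of the 8 libraries in turn (adjusted p from 1.17e-06 to 0.0027). The POTEF transcript shares 3536 aligned bases with POTEE at 99.3% identity, 3536 with POTEI at 98.0%, and 1394 with ACTB at 89.2%, so reads could be split or misassigned among these genes and its counts are uncertain. The transcripts of PPP1R1B and EHF aligned to no other gene at 85% identity or more.

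**Figure D1:**
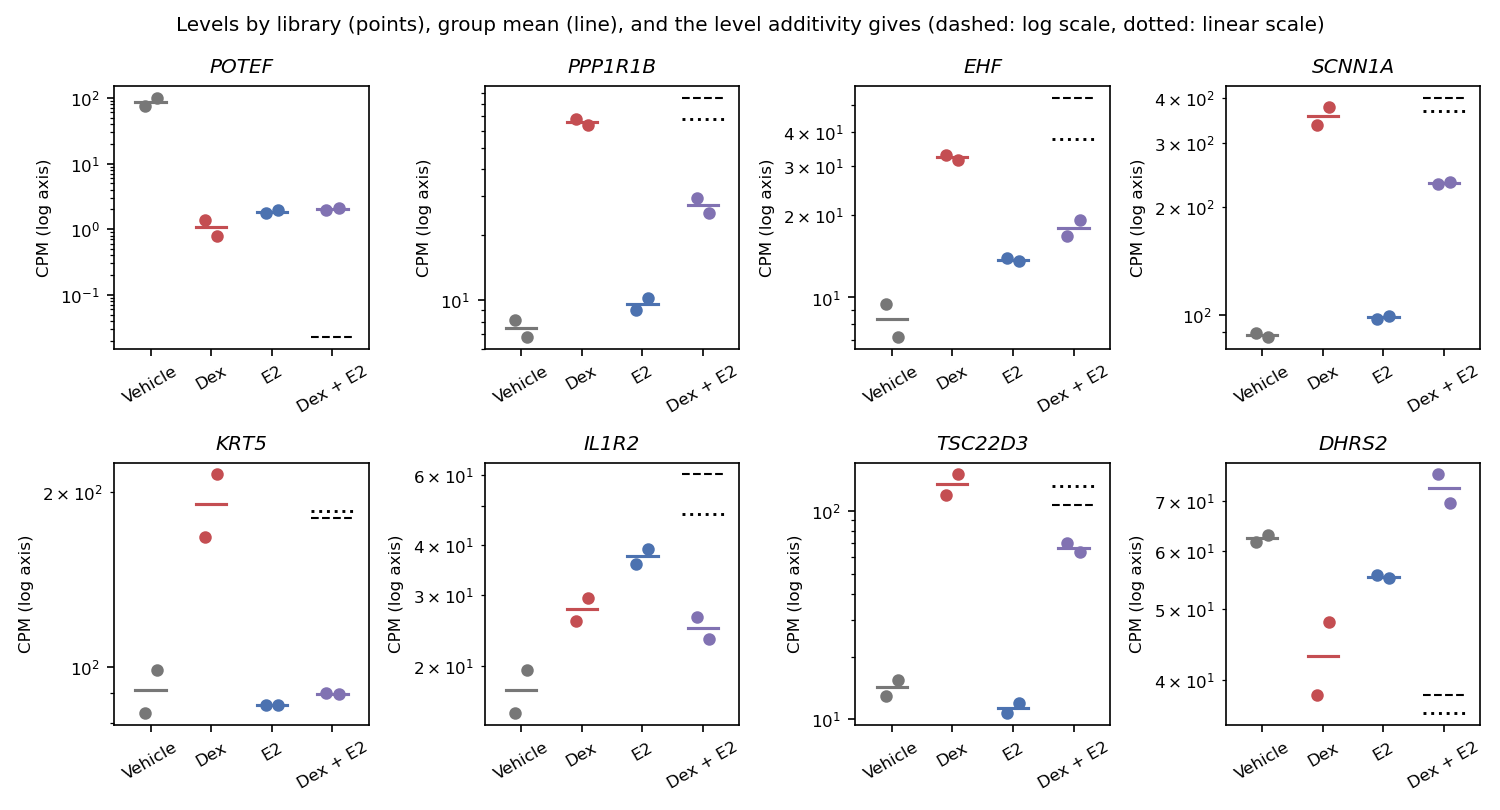
Level in CPM (log axis) of 8 genes in every library (points) with group means (lines), and the level that additivity predicts for the combination on the log scale (dashed) and the linear scale (dotted, not drawn where it is below 0). PPP1R1B, EHF, SCNN1A, KRT5, IL1R2 and TSC22D3 lie below both predictions, and DHRS2 and POTEF above; only POTEF, PPP1R1B and EHF passed the test.

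Among genes that dexamethasone raises, interactions below 0 were common, and 2 were called, against 3 of all 14201 genes tested (0.0211%). The average dexamethasone effect, over both estradiol backgrounds, was called for 152 genes (1.07% of those tested), 142 raised and 10 lowered. With equal spread in all groups this average is orthogonal to the interaction, so that choosing genes by it would favour neither sign, although it uses the same libraries. By the chi-square the spread was not equal, at 17.2 in vehicle and 24.8 with dexamethasone, against 9.61 with estradiol and 12.2 with both. Abundant genes weigh most in these values, so they do not give the spread of the 142 genes. More noise in the effect in vehicle makes the choice favour values below 0. The size of this was not tested. Among the 142 dexamethasone-raised genes the median interaction was -0.39 (quartiles -0.70 and -0.20), against -0.01 over all genes tested. An interaction below 0 was found for 124 of them (87.3%), against 51.6% of all genes. Of the 142, 54 were below 0 with an unadjusted p under 0.05 (38.0%) and 1 above, against 3.43% and 1.73% of all genes. The median log2 effect of dexamethasone over these genes was 0.94 in vehicle and 0.62 in estradiol. The median share of the log2 response kept in estradiol was 61.4%, with under 50% kept by 50 genes, under 25% by 13 and over 100% by 18. With any library left out of the fit, the median interaction of these same 142 genes lay between -0.45 (without vehicle 2) and -0.36. The set stayed as chosen with all 8 libraries, so this range does not show how far the choice favours values below 0. Chosen instead by the dexamethasone effect in estradiol alone, which favours values above 0, the 34 genes raised had a median of -0.28, and the 129 raised in vehicle alone, a choice which favours values below 0, had -0.52.

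**Figure D2:**
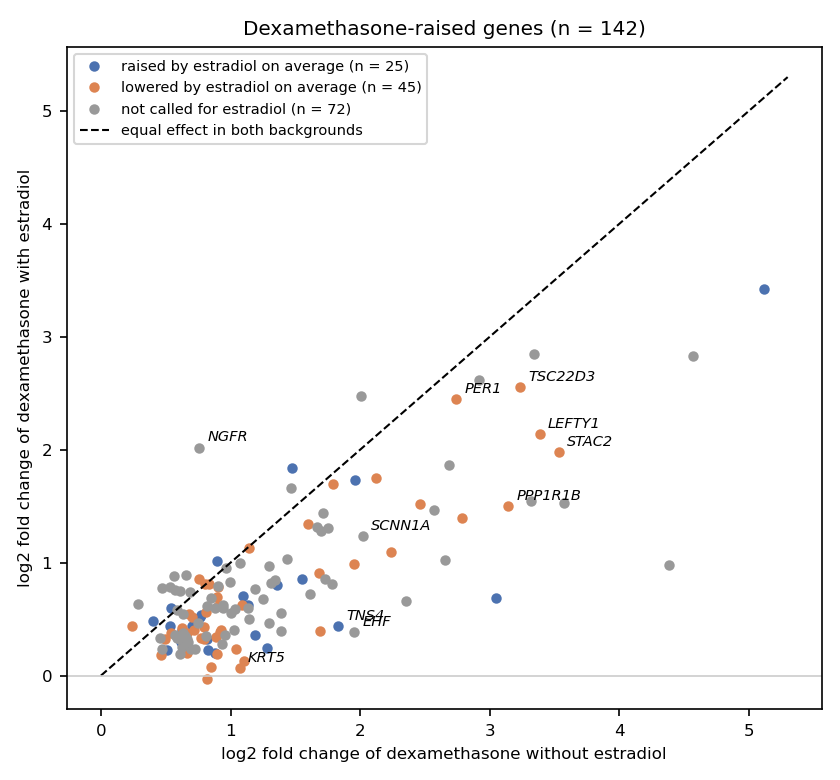
Log2 fold change of dexamethasone in vehicle (horizontal) against that in estradiol (vertical) for the 142 dexamethasone-raised genes, coloured by their average estradiol effect; the dashed line marks equal effects. Of these genes, 124 have an interaction below 0, and KRT5 lies near 0 on the vertical axis while NGFR lies above the line.

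Of 49 tested genes on a list of known glucocorticoid-induced genes, 19 were among the 142 raised here, and they kept between 50.5% and 186% of their log2 response (median 79.1%), with 15 interactions below 0. Over all 49, which include genes without a called dexamethasone effect, the median share was 50.5%, with 24 under 50%. SGK1, a kinase that regulates sodium channels, had effects of 0.65 in vehicle and 0.26 in estradiol, and HSD11B2, which inactivates cortisol, 0.90 and 0.30, without a called average effect. PER1, a circadian repressor, was at 18.3 and 19.7 CPM in vehicle, 129 and 125 CPM with dexamethasone, 18.4 and 15.9 CPM with estradiol and 90.6 and 95.7 CPM with both, and kept 89.3% of its log2 response. TSC22D3, which encodes the anti-inflammatory protein GILZ, was at 13.0 and 15.5 CPM in vehicle, 119 and 150 CPM with dexamethasone, 10.7 and 11.9 CPM with estradiol and 70.0 and 63.5 CPM with both. Dexamethasone raised TSC22D3 in both backgrounds, by 3.23 ± 0.14 in vehicle and 2.56 ± 0.14 in estradiol, and its interaction of -0.68 ± 0.20 did not pass the test (adjusted p = 0.76, edgeR). FKBP5, a cochaperone that dampens receptor activity, had effects of 1.67 ± 0.11 and 1.31 ± 0.11 and an interaction of -0.35 ± 0.15 (adjusted p = 0.945). KLF9, a zinc-finger factor, kept 74.9%, and GMPR, a purine enzyme, 69.4%. NFKBIA, the inhibitor of NF-kB, kept 99.4%. BTG2, an antiproliferative gene, had the same effect of 0.81 ± 0.10 in both backgrounds. DUSP1, a phosphatase often induced by glucocorticoids, was low in all groups at 2.42 to 3.50 CPM, with an interaction of 0.35 ± 0.30.

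Epithelial and transport genes among the 142, picked after their values were seen, differed in the share kept. KRT5, a basal keratin, was at 83.0 and 98.8 CPM in vehicle, 167 and 215 CPM with dexamethasone, 85.9 and 85.7 CPM with estradiol, and 89.9 and 89.5 CPM with both. The dexamethasone libraries stood above all others, which overlapped. Dexamethasone raised KRT5 by 1.07 ± 0.13 in vehicle and gave 0.06 ± 0.13 in estradiol, with an interaction of -1.01 ± 0.18 that missed the threshold (adjusted p = 0.237, edgeR) but passed it by DESeq2 (adjusted p = 0.00036). TMEM63A, a mechanosensitive channel, had the same pattern, at 16.0 and 15 CPM in vehicle, 27.6 and 27.0 CPM with dexamethasone, 15.8 and 15.5 CPM with estradiol and 15.9 and 14.7 CPM with both. FOXJ1, the regulator of motile cilia, had effects of 0.85 ± 0.13 and 0.08 ± 0.14, and kept 9.02%. SCNN1A, the α subunit of the epithelial sodium channel, was at 89.0 and 87.0 CPM in vehicle, 337 and 378 CPM with dexamethasone, 97.8 and 99.4 CPM with estradiol and 231 and 233 CPM with both. Dexamethasone raised SCNN1A in either background, by 2.02 ± 0.09 and 1.23 ± 0.09, and the interaction was -0.79 ± 0.13 (adjusted p = 0.229, and 0.00036 by DESeq2), with 61.1% kept. STAC2, which binds voltage-gated calcium channels, had effects of 3.54 ± 0.19 and 1.98 ± 0.21 with an interaction of -1.56 ± 0.30 (adjusted p = 0.238).

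Signalling and growth-control genes among the 142 included LEFTY1, CDKN1C and CDKN1A. LEFTY1, a secreted inhibitor of Nodal, was at 0.840 and 3.40 CPM in vehicle, 18.8 and 26.4 CPM with dexamethasone, 0.732 and 0.795 CPM with estradiol, and 3.28 and 3.50 CPM with both, and the vehicle and combination ranges overlapped. Its interaction of -1.25 ± 0.70 did not pass the test (adjusted p = 0.98, edgeR). CDKN1C, a cyclin-dependent kinase inhibitor that is imprinted and expressed in decidualising stroma, had dexamethasone effects of 1.68 ± 0.18 in vehicle and 0.91 ± 0.19 in estradiol. CDKN1A, another inhibitor of this class, had effects of 0.53 ± 0.10 and 0.78 ± 0.10 and lay above both predictions in the combination. The catenin CTNND2 kept 28.6% (interaction called by DESeq2, adjusted p = 0.04996) and the growth factor PDGFB 21.0% of their responses.

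The 142 genes divided by their average estradiol effect, which was called for 824 genes (5.8% of those tested), into 25 raised, 45 lowered and 72 without a call. The median interactions were -0.39, -0.44 and -0.38. Without dexamethasone 1 they were -0.26 for the raised and -0.53 for the lowered genes, and without dexamethasone 2 they were -0.44 and -0.33, so their order rests on a single library and no difference between them was tested. Those without a call had -0.33 without estradiol 2. On the linear scale the single changes in CPM are summed. By arithmetic the sum exceeds the product for a gene that the hormones move in opposite directions and is below it for a gene that both raise, so the counts that follow depend on this choice of scale. The combination libraries lay below all 8 linear values that the single libraries give for 42 of the 45 estradiol-lowered genes and above for 0. Against the 8 log values they lay below for 30 of the 45 and above for 1. Of the 25 genes raised by both hormones, 8 were below and 7 above on the linear scale. On the log scale 14 of the 25 were below and 0 above. Over all genes tested, 10.3% were below all 8 linear values and 7.20% above. For the log values these shares were 9.64% and 7.31%.

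For the 25 genes that both hormones raised, the combination was set against the sum and the product of the single changes, of which the sum is always the lower. Observed over summed level had a median of 0.944, and 17 of 25 genes lay within 20% of the sum. Observed over multiplied level had a median of 0.781 over the 24 genes where it is defined, with 10 within 20% of the product. TUBA3E had 0 counts in both vehicle libraries, so the product is undefined for it. TNS4, a focal adhesion protein, was at 1.15 and 1.46 CPM in vehicle, 4.43 and 4.94 CPM with dexamethasone, 7.32 and 7.15 CPM with estradiol and 9.94 and 9.65 CPM with both. That is 0.923 of the sum of 10.6 CPM and 0.378 of the product of 25.9 CPM. LFNG, a glycosyltransferase that modifies Notch, was below both, at 66.3 and 58.8 CPM with both hormones against 72.8 and 53.9 CPM with dexamethasone and 45.6 and 59.7 CPM with estradiol (interaction -1.04 ± 0.23, adjusted p = 0.412, and 0.0197 by DESeq2). VDR, the vitamin D receptor, was at 44.4 and 46.8 CPM with both, 43.8 and 44.4 CPM with dexamethasone and 29.1 and 30.2 CPM with estradiol, so estradiol added 0.05 ± 0.09 (log2) to dexamethasone. FSTL3, which binds activin, and IER5L likewise lay below both predictions, at 0.744 and 0.810 of the sum. TFCP2L1, an epithelial transcription factor, and G0S2, an inhibitor of lipolysis, exceeded the sum, at 1.48 and 1.43 of it, and did not exceed the product.

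**Figure D3:**
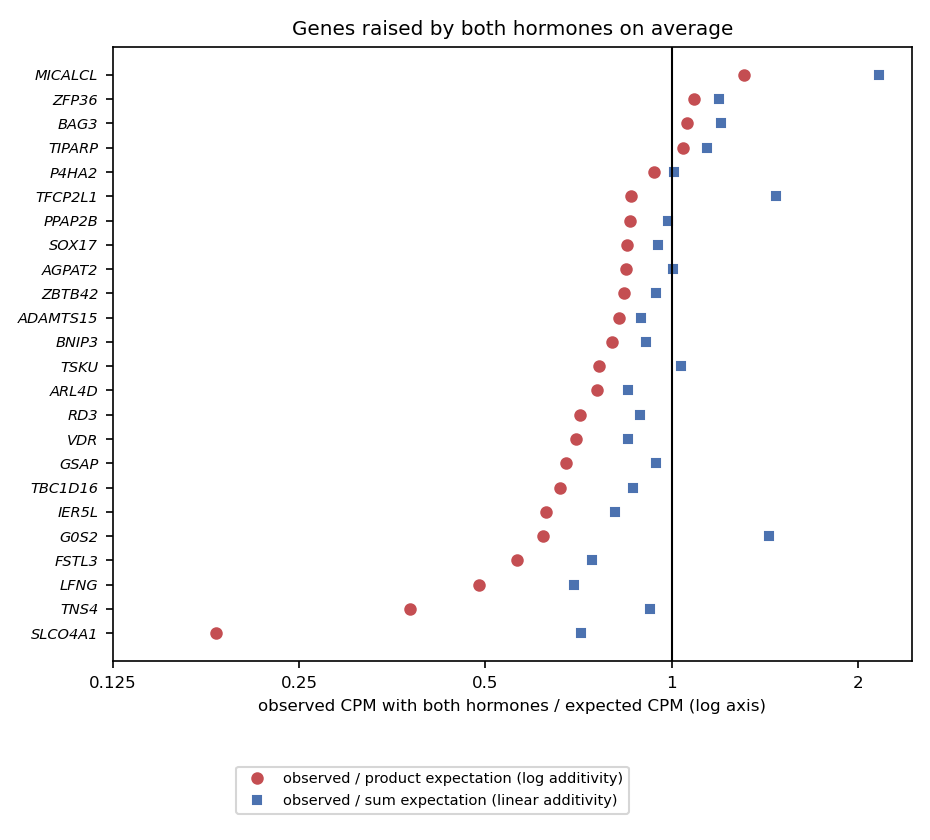
Observed mean CPM with both hormones divided by the product (circles) and by the sum (squares) of the single effects, on a log axis, for 24 of the 25 genes raised by both hormones (TUBA3E, with 0 counts in vehicle, is not drawn). The squares gather around 1 (median 0.944 over all 25 genes) and the circles lie mostly to the left (median 0.781).

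Genes were also chosen by the average estradiol effect. The 361 estradiol-raised genes had a median interaction of -0.14, with 60 below 0 (16.6%) and 11 above (3.05%) at an unadjusted p under 0.05. The 463 estradiol-lowered genes also had a median of -0.14, with 68 below (14.7%) and 12 above (2.59%). Over all genes these shares were 3.43% and 1.73%. The estradiol-raised median moved to 0.0063 without dexamethasone 1, so it rests on that library. Without the 25 genes that dexamethasone also raised, the remaining 336 had a median of -0.13, and 0.021 without dexamethasone 1. The estradiol-lowered median ranged from -0.20 to -0.08 with a library left out.

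Several estradiol-raised genes, among them the classic targets PGR and GREB1, were higher in dexamethasone 1 than in the other libraries without estradiol. PGR, the progesterone receptor, was at 4.09 and 2.53 CPM in vehicle, 8.91 and 2.47 CPM with dexamethasone, 41.0 and 31.8 CPM with estradiol and 36.5 and 37.3 CPM with both, with an interaction of -0.80 ± 0.55 (adjusted p = 1, edgeR). GREB1, a chromatin-bound cofactor of the estrogen receptor, was at 17.7 CPM in dexamethasone 1 and 6.85 CPM in dexamethasone 2, against 8.03 and 6.71 CPM in vehicle. NPPC (a natriuretic peptide), DHRS3 (a retinaldehyde reductase), and the alkaline phosphatases ALPI and ALPP had the same pattern, with dexamethasone 1 at 1.78, 8.72, 1.54 and 5.63 CPM and dexamethasone 2 at 0.505, 1.85, 0.505 and 0.954 CPM. With both hormones ALPP was at 15.8 and 15.7 CPM and NPPC at 10.9 and 9.29 CPM, against 10.9 and 12 CPM for ALPP and 9.91 and 10.5 CPM for NPPC with estradiol. RBM24, an RNA-binding protein, differed in its level with both hormones, at 4.84 and 5.34 CPM with estradiol and 2.53 and 2.42 CPM with both. Its interaction of -1.20 ± 0.68 did not pass the test (adjusted p = 0.984, edgeR). With a library left out this interaction ranged from -1.81 to 0.087, so it was not stable either.

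**Figure D4:**
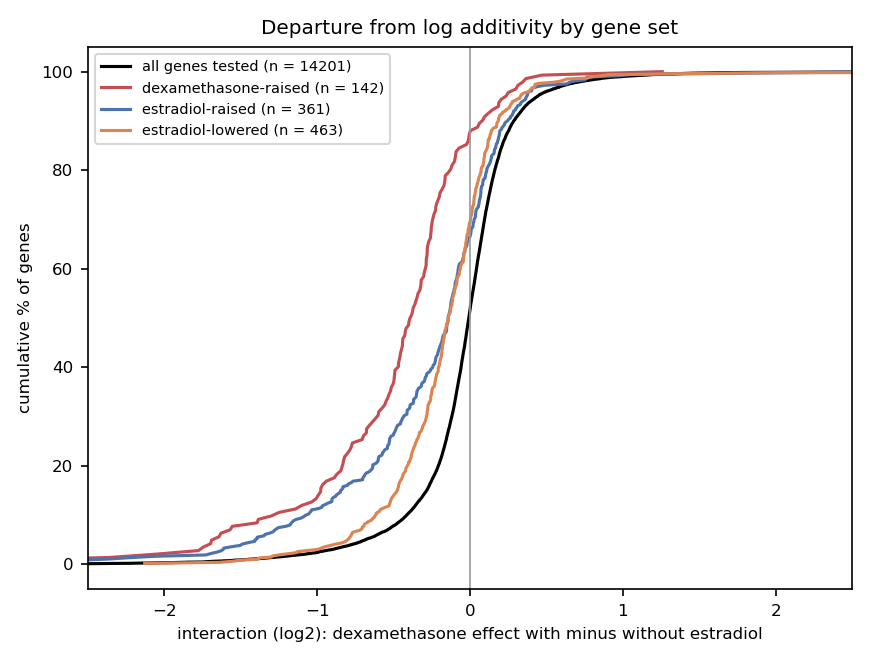
Cumulative share of genes (vertical, %) by interaction (horizontal, log2, drawn from -2.5 to 2.5) for all genes tested and for genes called by their average hormone effects. The dexamethasone-raised curve lies to the left of the others, with 87.3% of genes below 0 against 51.6% of all genes.

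**Figure D5:**
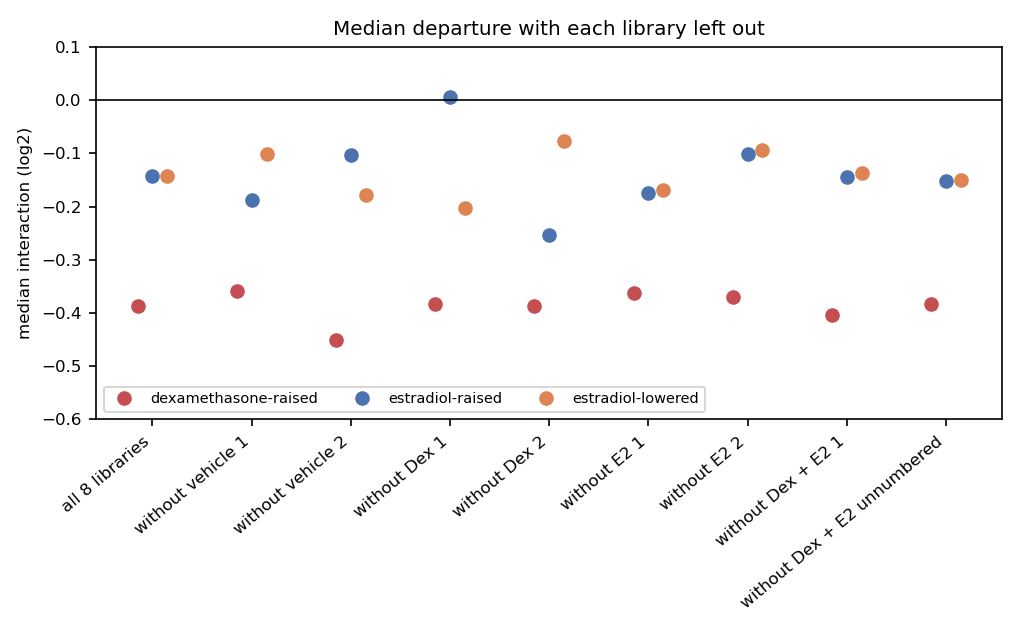
Median interaction (log2) of 3 gene sets with all 8 libraries and with each library left out. The sets were chosen with all 8 libraries and kept when a library was left out. The dexamethasone-raised median stays between -0.45 and -0.36, and the estradiol-raised median reaches 0.0063 without dexamethasone 1.

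Above additivity, POTEF alone was called. NGFR, the low-affinity neurotrophin receptor, was the dexamethasone-raised gene with the largest share of its response kept. It was at 1.57 and 1.90 CPM in vehicle, 3.08 and 2.81 CPM with dexamethasone, 1.07 and 1.46 CPM with estradiol and 5.32 and 5.07 CPM with both. Dexamethasone gave 0.76 ± 0.24 in vehicle (adjusted p = 0.272, edgeR) and raised NGFR by 2.02 ± 0.23 in estradiol (adjusted p = 0.00304), but the interaction of 1.26 ± 0.33 did not pass the test (adjusted p = 0.635). DHRS2, a short-chain dehydrogenase, was at 61.7 and 63.1 CPM in vehicle, 38.2 and 48.0 CPM with dexamethasone, 55.5 and 55.1 CPM with estradiol, and 76.1 and 69.7 CPM with both. The DHRS2 combination libraries were above all others, and the interaction was 0.93 ± 0.16 (adjusted p = 0.237, called by DESeq2). FAM46C, a poly(A) polymerase, was at 1.59 and 1.91 CPM with dexamethasone and at 3.05 to 4.35 CPM in the 6 other libraries. MICALCL had 0.840 and 0.972 CPM in vehicle, 3.37 and 1.63 CPM with dexamethasone, 2.14 and 2.61 CPM with estradiol and 8.87 and 8.26 CPM with both, more than the sum of 3.97 CPM, while its interaction on the log scale was 0.37 ± 0.46. Among the 10 dexamethasone-lowered genes the median interaction was -0.07, and 0.025 without dexamethasone 2. They included NR1D2, a circadian repressor, at 52.9 and 46.3 CPM in vehicle, 27.1 and 25.4 CPM with dexamethasone and 31.4 and 38.5 CPM with both.

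Among genes without a called average dexamethasone effect, several had low interaction values that did not pass the edgeR test. IL1R2, a decoy receptor for interleukin-1, was at 15.2 and 19.5 CPM in vehicle, 25.9 and 29.6 CPM with dexamethasone, 35.9 and 39.2 CPM with estradiol and 26.5 and 23.3 CPM with both. Its interaction of -1.27 ± 0.19 had the smallest p after the called genes (adjusted p = 0.162, edgeR), and DESeq2 called it (adjusted p = 0.000128). CLIC5, a chloride intracellular channel protein, was at 12.5 and 14.5 CPM with dexamethasone and at 4.35 to 6.86 CPM in the other 6 libraries (interaction -1.51 ± 0.28, adjusted p = 0.237, and 0.021 by DESeq2). Of the feedback inhibitors of growth factor signalling, SPRY4 was at 16.0 and 14.3 CPM in vehicle, 20.4 and 17.7 CPM with dexamethasone, 18.8 and 20.6 CPM with estradiol and 12.2 and 13.2 CPM with both. DUSP6, a phosphatase of ERK, was at 62.8 and 65.5 CPM with dexamethasone and 39.4 and 40.4 CPM with both (interaction -0.64 ± 0.15, adjusted p = 0.469). The YAP target ANKRD1 was at 2.57 and 2.67 CPM in vehicle, 3.18 and 3.82 CPM with dexamethasone, 3.77 and 3.67 CPM with estradiol and 1.60 and 1.39 CPM with both. In SPRY4 and ANKRD1 the combination libraries were below all others, and neither interaction passed the test (-0.96 ± 0.18 and -1.72 ± 0.30, adjusted p = 0.237 for both).

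Across 26 gene lists, 0 tested members had a called interaction. Over all genes 3 of 14201 were called (0.0211%), so a count of 0 says little about the lists. Of 49 tested of 57 glucocorticoid-induced genes, 8 were below 0 and 1 above at an unadjusted p under 0.05, with a median of -0.09. Of 47 estrogen-induced genes, 9 were below and 0 above (median -0.18), among them CA12 (-1.17 ± 0.34), a carbonic anhydrase, and CCND1 (-0.61 ± 0.16), the cyclin D1 gene. Of these 47, 26 were among the estradiol-raised genes, whose median interaction rested on dexamethasone 1. Of 23 Hippo and serum response targets 5 were below and 0 above (median -0.21), the matricellular genes CYR61 (-0.81 ± 0.22) and CTGF (-0.71 ± 0.28) and the contractile genes CNN1 (-1.06 ± 0.27) and ACTA2 (-0.84 ± 0.27) besides ANKRD1. Of 16 ion and water transport genes 5 were below and 1 above (median -0.21). Of 26 growth factor receptors and feedback genes 5 were below and 0 above (median -0.10), and of 18 endometrial receptivity genes 5 were below and 0 above (median -0.22). These counts stand against 3.43% below and 1.73% above among all genes. The ribosome biogenesis, unfolded protein and heat shock lists, with 23, 19 and 11 members tested, had 0 at this threshold in either direction, and their medians were -0.10, 0.002 and -0.03. Interactions below 0 of any size were found for 20 of the 23 ribosome biogenesis genes (87.0%) and 10 of 12 housekeeping genes (83.3%). For steroid receptors and coregulators the share was 36%. A share near the 87.3% of the dexamethasone-raised genes was thus not particular to them, but the share does not give the size of the interactions. The ribosome biogenesis and housekeeping medians were -0.10 and -0.04, with standard deviations of 0.124 and 0.144 over choices of 1 library per group. For the dexamethasone-raised genes, a set chosen with these same libraries, the median was -0.39 and this standard deviation 0.045. Other lists had medians above 0. Of 15 interferon genes 1 was below and 2 above (median 0.07), and of 25 apoptosis and p53 genes 1 below and 2 above (median 0.05). Of 25 steroid receptors and coregulators 1 was below and 0 above (median 0.09). The standard deviations of these medians over choices of 1 library per group were 0.134, 0.058 and 0.114, each larger than the median. Of 364 list medians under alternatives, 39 had the other sign.

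The receptors themselves were near additivity. NR3C1 was at 58.3 to 66.4 CPM in all 8 libraries, with an interaction of 0.17 ± 0.14 (adjusted p = 1, edgeR). ESR1 was at 181 and 157 CPM in vehicle, 199 and 184 CPM with dexamethasone, 125 and 121 CPM with estradiol and 144 and 154 CPM with both, with an interaction of 0.09 ± 0.14 (adjusted p = 1). PDZK1, an estrogen-responsive scaffold gene, was at 0.583 to 1.86 CPM, with an interaction of 0.10 ± 0.49.

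Promoter sequences of RefSeq (GRCh38.p14, the 250 bases before each start) were available for 92 of the 142 dexamethasone-raised genes. The palindromic glucocorticoid response element was searched as the arms GNACA and TGTNC, and the estrogen response element as the arms GGTCA and TGACC, each pair with any 3 bases between the arms and on either strand (N is any base). The glucocorticoid element was found in FAM107A and PPARGC1A (2 of 92 genes, against 0.399% of all 27305 genes in the table), and the estrogen element in PRR16 (1 of 92, against 0.0513%). A single arm of the glucocorticoid element (TGTTCT) was in 14.1% of the 92 genes and 14.8% of all, and a single arm of the estrogen element (AGGTCA) in 12% and 14.6%. An arm can lie inside a full element. The windows below are those with a full element and those of EHF, the called gene with promoter entries, which holds neither element; capitals mark the full element.
FAM107A chr3:58587015-58587264 (minus strand): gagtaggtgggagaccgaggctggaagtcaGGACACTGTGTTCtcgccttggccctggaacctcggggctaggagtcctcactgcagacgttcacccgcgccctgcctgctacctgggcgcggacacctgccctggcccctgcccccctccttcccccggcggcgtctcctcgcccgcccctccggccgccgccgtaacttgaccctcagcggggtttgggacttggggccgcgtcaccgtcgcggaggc
FAM107A chr3:58577392-58577641 (minus strand): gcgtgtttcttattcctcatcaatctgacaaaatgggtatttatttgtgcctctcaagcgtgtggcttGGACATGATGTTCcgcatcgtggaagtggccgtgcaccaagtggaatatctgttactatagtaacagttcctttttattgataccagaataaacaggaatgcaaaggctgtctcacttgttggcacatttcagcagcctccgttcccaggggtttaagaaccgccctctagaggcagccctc
PPARGC1A chr4:24472906-24473155 (minus strand): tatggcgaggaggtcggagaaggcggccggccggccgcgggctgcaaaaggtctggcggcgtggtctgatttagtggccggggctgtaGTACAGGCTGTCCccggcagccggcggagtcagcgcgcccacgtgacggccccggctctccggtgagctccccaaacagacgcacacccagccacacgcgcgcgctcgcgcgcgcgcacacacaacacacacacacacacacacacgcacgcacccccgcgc
PRR16 chr5:120531214-120531463 (plus strand): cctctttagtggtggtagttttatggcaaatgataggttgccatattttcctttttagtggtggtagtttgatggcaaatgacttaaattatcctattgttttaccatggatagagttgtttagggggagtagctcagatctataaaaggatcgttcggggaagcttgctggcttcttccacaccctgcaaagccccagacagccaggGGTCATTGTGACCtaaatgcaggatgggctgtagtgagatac
EHF chr11:34624007-34624256 (plus strand): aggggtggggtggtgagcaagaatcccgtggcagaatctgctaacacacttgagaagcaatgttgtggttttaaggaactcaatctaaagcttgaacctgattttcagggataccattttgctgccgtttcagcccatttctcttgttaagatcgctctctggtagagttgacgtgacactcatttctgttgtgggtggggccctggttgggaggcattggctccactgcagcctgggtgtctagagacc
EHF chr11:34632316-34632565 (plus strand): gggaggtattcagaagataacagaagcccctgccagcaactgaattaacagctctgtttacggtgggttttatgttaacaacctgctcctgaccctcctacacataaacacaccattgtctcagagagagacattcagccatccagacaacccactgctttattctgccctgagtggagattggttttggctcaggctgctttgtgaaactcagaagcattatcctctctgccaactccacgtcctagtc

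FAM107A, a stress-responsive actin-binding protein, was at 1.73 and 1.65 CPM in vehicle, 5.3 and 7.86 CPM with dexamethasone, 0.788 and 0.971 CPM with estradiol, and 1.64 and 1.89 CPM with both, so the combination overlapped vehicle. PPARGC1A, a coactivator of mitochondrial genes, was at 4.15 and 3.31 CPM in vehicle, 10.6 and 12 CPM with dexamethasone, 2.08 and 1.90 CPM with estradiol and 4.70 and 5.39 CPM with both. The log2 response kept was 50.5% for FAM107A and 84.1% for PPARGC1A. PRR16 was at 1.49 and 1.68 CPM with dexamethasone and 1.24 and 1.30 CPM with both, with 0 to 0.309 CPM in the other libraries. Interactions of these genes were -0.96 ± 0.41, -0.25 ± 0.27 and -0.49 ± 1.10, and did not pass the test.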

How the data were processed

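The authors deposited raw counts per gene for 8 libraries made with a stranded mRNA kit, per the labels' protocols, and a normalised signal per gene. The submitters' processing notes name hg19, HISAT2 2.0.4, featureCounts 1.5.1 from Subread, and DESeq2 1.14.1. Annotation and strand setting were not given in the sources used, so antisense and overlapping genes may share reads. The deposited signal equals each count divided by 1 factor per library (0.876 to 1.11) and was used only for that check. Columns were assigned by name; both combination columns carry the number 1, and the column that does not match the label is called unnumbered.

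The counts were analysed in R 4.3.3 with edgeR 4.0.16 and limma 3.58.1: filterByExpr, TMM scaling, and glmQLFTest on all 4 groups with 4 residual degrees of freedom. CPM use TMM-scaled totals, and SEs derive from the test statistic. The tests were tested on simulated data. Alternatives were DESeq2 1.42.0, limma-voom, other scaling and filters, a replicate block and each library left out. Transcripts were aligned with blastn 2.17.0.

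The comparison, gene sets and 26 lists were chosen with earlier results of these data known. Genes to name were taken by rule, though not all are printed: called genes, 12 receptor targets and receptors where tested, the smallest p of each list, and the 6 largest average effects of each hormone. Other genes named were chosen after their values were seen. Some genes are not reported here.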

Additional observations from a re-analysis of the deposited data

Results flagged for a closer look

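The effect of dexamethasone differed between vehicle and estradiol, by the test of that difference, for EHF (-1.57 on the log2 scale), PPP1R1B (-1.64) and POTEF (6.43). The POTEF value rests on the vehicle libraries alone being high, and its counts are uncertain because of near-identical copies.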

How the results depend on the processing

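The test called 3 genes, 2 below additivity and 1 above. Without a filter these were 32, 27 and 5, and by DESeq2 14, 11 and 3. RLE scaling, a stricter filter and limma-voom gave 3 in all. With each library left out, the count was 1 to 10, with 0 to 7 below and 1 to 3 above; 10 were called without dexamethasone 2 and 5 without vehicle 2. With the replicate number as a block, over the 7 numbered libraries, 5 were called, 3 above. Deviations of same-numbered libraries correlated at 0.385 (vehicle and dexamethasone), 0.288 (vehicle and estradiol) and 0.0576 (dexamethasone and estradiol), so not every pair was above 0.1 and the numbers were not taken to pair the libraries; pairs with the combination were not assessed. Under the alternatives the called genes lost their call 9 times, each time with a library left out, and reversed 0 times.

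The median interaction of the dexamethasone-raised genes was -0.45 to -0.36 with a library left out, and -0.28 or -0.52 with the set chosen, after seeing the data, in a single background. When a library was left out, all sets stayed as chosen with all 8 libraries, and only the interaction was fitted again. With a library left out, the estradiol-raised part ranged from -0.48 (without vehicle 2) to -0.26 (without dexamethasone 1), the estradiol-lowered part from -0.53 (without dexamethasone 1) to -0.33 (without dexamethasone 2), and the part without an estradiol call from -0.40 to -0.33. The dexamethasone-lowered median ranged from -0.12 (without dexamethasone 1) to 0.025 (without dexamethasone 2). The estradiol-raised median ranged from -0.25 (without dexamethasone 2) to 0.0063 (without dexamethasone 1), and from -0.24 to 0.021 without dexamethasone-called genes. The cause of these moves was not tested. With 2 libraries a group and a median SE of 0.19, departures of the median size in the dexamethasone-raised set cannot be called singly.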

Other observations

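The pair of enzymes that add and remove O-linked N-acetylglucosamine on proteins had interactions of opposite sign that did not pass the edgeR test. MGEA5, which removes the sugar, was at 337 and 315 CPM in vehicle, 233 and 236 CPM with dexamethasone, 297 and 265 CPM with estradiol and 298 and 323 CPM with both (interaction 0.62 ± 0.14, adjusted p = 0.412 by edgeR and 0.0297 by DESeq2). OGT, which adds it, was at 87.6 and 83.4 CPM in vehicle, 118 and 112 CPM with dexamethasone, 97.6 and 91.3 CPM with estradiol and 87.2 and 83.2 CPM with both (-0.58 ± 0.13, adjusted p = 0.412). In both genes the combination libraries lay near vehicle. Both were singled out after their values were seen.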
